A study of Mus musculus with 2 samples.

Results

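Complement is a set of blood and tissue proteins that mark microbes and damaged cells for removal. C1q binds antibody or altered surfaces and activates the proteases C1r and C1s, which cut C4 and C2. The product cuts C3, the central component, whose fragments coat a target and recruit phagocytes. Factor B extends C3 cleavage through the alternative pathway, and the C1 inhibitor blocks C1r and C1s. The liver supplies much of the plasma protein, while macrophages and dendritic cells are known sources of C1q and fibroblasts of several early components.

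The genes described here are 9 complement genes of the colon stroma and macrophages, chosen by symbol from the 31053 genes listed in the files. They are C1qa (ENSMUSG00000036887), C1qb (ENSMUSG00000036905) and C1qc (ENSMUSG00000036896), which encode the chains of C1q, and C1ra (ENSMUSG00000055172) and C1s1 (ENSMUSG00000038521), which encode C1r and C1s. The others are C4b (ENSMUSG00000073418) for C4, C3 (ENSMUSG00000024164), Cfb (ENSMUSG00000090231) for factor B and Serping1 (ENSMUSG00000023224) for the C1 inhibitor. All 9 were found, each in a single row of both count matrices.

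The series measured RNA of single colon cells from wild-type C57BL/6 mice with 10x Genomics 5' gene expression libraries. One library came from colon after Δ9-tetrahydrocannabinol (THC, the main psychoactive compound of cannabis) at 10 mg/kg and 1 from colon after vehicle. No source used here gives the age, sex or number of the mice behind a library, or the time of dosing. With 1 library per group there was no replicate, no test was made, and every interval covers counting error only.

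Cells were barcodes with at least 1000 unique molecular identifiers (UMIs, tags that each stand for a captured RNA molecule), at least 200 genes and under 10% mitochondrial UMIs. That left 396 THC cells with 4418882 UMIs and 630 vehicle cells with 5692678 UMIs, with medians of 8598.5 and 7122 UMIs per cell, and no barcode was shared between them. The mitochondrial limit removed 36.9% of THC and 30.8% of vehicle barcodes. The libraries were deposited at different stages: the THC matrix listed 737280 barcodes, of which 106628 had a UMI, and the vehicle matrix listed 973, the lowest with 502 UMIs. Cells were clustered without the complement genes, and the 22 clusters were named from marker lists as "X-like" classes, rebuilt here.

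The fibroblast-like class, which held 10 of 10 fibroblast markers in both libraries, had 86 THC and 151 vehicle cells. Its Pi16-side cells (28 THC, 52 vehicle), led by Has1, Gfpt2, Pcolce2 and Pi16, resembled adventitial fibroblasts, which lie around vessels and in the submucosa. When the class was clustered again on its own, 14 and 27 of these cells took the name of a submucosal fibroblast list headed by Cd81 and Grem1, on 3 of its 6 markers. Pi16 was also among the 10 leading genes of that finer cluster. Over all Pi16-side cells, Cd81 was found in 25 of 28 and 48 of 52, but Grem1 in only 2 and 4. The Adamdec1-side cells (44 and 79), led by Igfbp3, Sfrp1 and Adamdec1, resembled fibroblasts of the lamina propria. Subepithelial cells (14 and 20), led by Bmp2, Nrg1 and Procr, held 8 of 8 markers of Pdgfra-high fibroblasts beneath the epithelium. Adamdec1 was found in 43 of 44 THC and 78 of 79 vehicle Adamdec1-side cells, and in 14 of 14 and 20 of 20 subepithelial cells. Only 1 of 28 and 4 of 52 Pi16-side cells held it. Its detection thus set Adamdec1-side cells apart from Pi16-side cells but not from subepithelial cells. A further 5 THC and 2 vehicle cells of these clusters held at least 4 of 5 mesothelial markers and were kept apart as mesothelial-like. The macrophage-like class (13 and 36 cells) held 11 of 11 macrophage markers in each library.

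Promoters were at hand for 5 of the 9 genes: those of C3, C1s1, C1ra, C1qb and C1qc, from RefSeq on GRCm38.p6. No source used here names the genome build behind the counts, so these positions are those of the RefSeq table. They are shown because C1ra and C1s1 lie next to each other and were found together in fibroblasts, C1qb and C1qc lie next to each other and were found together in macrophages, and C3 followed another pattern. Each runs 5' to 3' from 250 bases before the annotated start to 50 bases after it.

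The stretches lie at chr17:57228087-57228386 (minus strand) for C3, chr6:124542310-124542609 (minus) for the more upstream of 2 C1s1 starts, chr6:124512371-124512670 (plus) for C1ra, chr4:136886151-136886450 (minus) for C1qb and chr4:136892865-136893164 (minus) for C1qc. Capitals mark any match on either strand to TATAAA, TTGCNNAA (a C/EBP motif), GAGGAA (the core bound by PU.1), TTCNNNGAA (a STAT motif) or GAAANNGAA (an interferon response element).
C3: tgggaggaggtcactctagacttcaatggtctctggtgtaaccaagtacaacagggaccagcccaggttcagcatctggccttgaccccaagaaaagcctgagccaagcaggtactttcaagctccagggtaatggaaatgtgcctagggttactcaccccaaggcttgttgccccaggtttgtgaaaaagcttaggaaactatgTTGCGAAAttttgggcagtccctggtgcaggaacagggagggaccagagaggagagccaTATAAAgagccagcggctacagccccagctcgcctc
C1s1: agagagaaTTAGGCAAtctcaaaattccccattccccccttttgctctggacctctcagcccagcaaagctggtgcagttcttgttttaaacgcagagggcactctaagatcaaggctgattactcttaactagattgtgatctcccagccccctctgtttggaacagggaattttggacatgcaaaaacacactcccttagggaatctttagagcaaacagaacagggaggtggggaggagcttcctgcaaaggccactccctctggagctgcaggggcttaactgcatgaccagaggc
C1ra: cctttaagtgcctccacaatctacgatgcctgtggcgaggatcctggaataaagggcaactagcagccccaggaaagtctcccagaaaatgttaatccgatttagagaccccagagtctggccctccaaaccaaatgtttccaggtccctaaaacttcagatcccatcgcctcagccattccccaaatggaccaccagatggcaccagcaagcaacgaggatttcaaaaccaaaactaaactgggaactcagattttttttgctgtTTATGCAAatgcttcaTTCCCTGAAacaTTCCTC
C1qb: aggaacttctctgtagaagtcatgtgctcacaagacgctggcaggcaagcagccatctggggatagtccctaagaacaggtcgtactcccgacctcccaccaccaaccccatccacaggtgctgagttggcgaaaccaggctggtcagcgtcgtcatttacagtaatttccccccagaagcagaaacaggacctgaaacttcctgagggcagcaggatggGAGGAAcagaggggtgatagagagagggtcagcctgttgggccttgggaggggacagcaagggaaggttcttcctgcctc
C1qc: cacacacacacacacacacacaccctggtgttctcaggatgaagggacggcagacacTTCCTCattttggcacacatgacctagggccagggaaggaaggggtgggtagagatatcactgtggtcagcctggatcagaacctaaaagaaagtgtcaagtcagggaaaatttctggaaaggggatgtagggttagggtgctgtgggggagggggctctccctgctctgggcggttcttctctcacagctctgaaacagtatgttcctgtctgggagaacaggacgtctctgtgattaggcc

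C3 held TTGCGAAA, a match to the C/EBP motif, starting 45 bases before its annotated start, and TATAAA after it. C1s1 held a C/EBP match on the other strand, 242 bases before the upstream start. C1ra held a C/EBP match, a STAT match (TTCCCTGAA) and a PU.1 match, all within the 50 bases after its start. C1qb held GAGGAA 30 bases before its start, and C1qc held it on the other strand, 193 bases before. Of the 32851 promoters of this length in the table, 10.8% held the C/EBP motif, 28.3% GAGGAA, 13.6% TATAAA, 8.3% the STAT motif and 8.56% the interferon element, which none of the printed stretches held. No matches overlapped, and a match is a description of letters, not of binding.

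The RNA of these genes lay in different cells. C1qa, C1qb and C1qc lay mostly in macrophage-like cells, and C3, C4b, C1ra, C1s1 and Serping1 mostly in fibroblast-like and mesothelial-like cells. A small unnamed cluster held a further 12.2% of THC and 8.13% of vehicle Serping1 UMIs. Cfb RNA was sparse, at 41 and 45 UMIs, and epithelial-like cells held 48.8% and 48.9% of it. Levels are given as CPM, a gene's UMIs in a class, subset or cell scaled to a total of 1000000 UMIs.

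**Figure D1:**
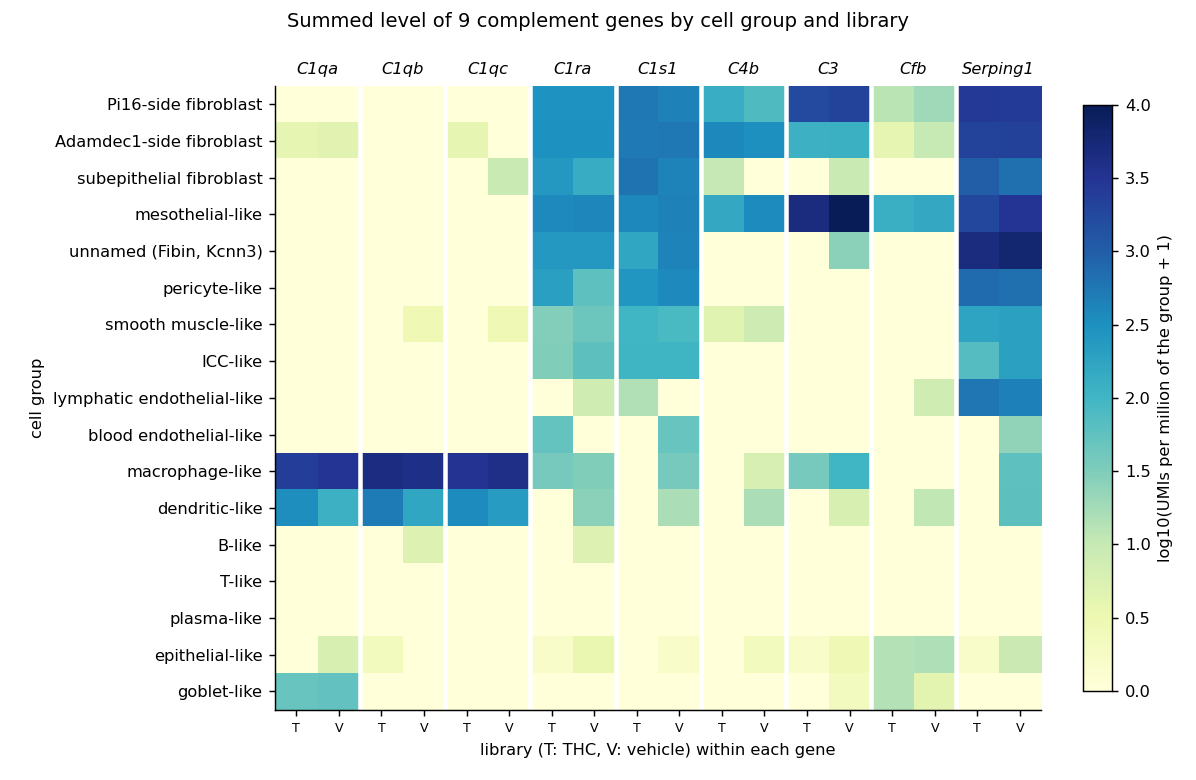
Level of each of the 9 genes in each cell group and library, as log10 of CPM plus 1, with T for the THC and V for the vehicle library. The C1q chains are dark in macrophage-like cells, Serping1 is dark in the fibroblast, mesothelial-like and unnamed rows, and C3 and C4b part between the fibroblast subsets.

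All 3 C1q chains marked the macrophage-like cells. In the THC library C1qa had 205, C1qb 373 and C1qc 272 UMIs in 13 cells, and in the vehicle library 619, 793 and 743 in 36 cells. Every THC cell and 35 of 36 vehicle cells held all 3 chains, and the remaining vehicle cell held 2. The 3 chains fold together into one protein, and here they were found together cell by cell.

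The summed chain count ranged from 12 to 150 UMIs per THC cell (median 69) and from 3 to 262 per vehicle cell (median 47.5). C1qa levels per cell ran from 943 to 3538 CPM in THC (median 2480) and from 471 to 6311 CPM in vehicle cells (median 2796). C1qb had the highest count of the chains summed over the class in both libraries. Its share of the 850 THC chain UMIs was 43.9% (exact binomial 95% interval 40.5 to 47.3) and of the 2155 vehicle chain UMIs 36.8% (34.8 to 38.9). C1qa made up 24.1% (21.3 to 27.1) and 28.7% (26.8 to 30.7) of them. C1qb exceeded C1qa in 10 of 13 THC and 24 of 36 vehicle cells. UMI counts of different genes also depend on how well each transcript is captured, so the order of the chains describes counts, not protein.

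The macrophage-like class held 75.1% of THC and 88.4% of vehicle C1qa UMIs, 86.1% and 95.8% of C1qb, and 86.9% and 93.9% of C1qc. Most of the rest of C1qb and C1qc lay in a few dendritic-like cells. Among 10 THC dendritic-like cells, 4 held a chain, and 1 of them held 24 C1qa, 43 C1qb and 31 C1qc UMIs with 94 UMIs over 7 of the 11 macrophage markers. Among 18 vehicle dendritic-like cells, 2 held a chain, and 1 of them held 21, 33 and 46 UMIs with 165 macrophage marker UMIs. The dendritic-like cells without C1q had medians of 9 and 14 macrophage marker UMIs, with highest values of 61 and 382. C1q in the dendritic-like class thus rested on 1 cell in each library, which held at least 64.9% of the UMIs of each chain. Those cells held only 2 and 1 dendritic marker UMIs, so their own markers leaned to macrophages.

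Lymphocytes gave the background of these shares. B-like cells held no C1q UMI in 37 THC cells and 1 C1qb UMI in 69 vehicle cells, at median depths of 3106 and 3133 UMIs, against 5510 and 4786.5 in macrophage-like cells. T-like cells held none in 23 and 31 cells. With every cell thinned to 1000 UMIs, C1qb was still found in 100% of THC and 91.7% of vehicle macrophage-like cells.

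C1qa was also found without its partners in goblet-like cells. Goblet cells secrete the mucus of the colon, and here they formed a cluster led by Reg4, Mptx1, Retnlb and Zg16 (cluster 5, 12 THC and 24 vehicle cells) and one led by Muc2, Spdef, Klk1 and Ccl6 (cluster 11, 31 and 45 cells). In cluster 5, 6 THC cells held 30 C1qa UMIs, with 13, 8, 3, 3, 2 and 1 per cell, and 10 vehicle cells held 48, with 1 to 9 per cell. Those 16 cells held no C1qb and no C1qc UMI. No cell of cluster 11 held any of the 3 chains.

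In macrophage-like cells there were 3.15 C1qb and C1qc UMIs for each C1qa UMI in the THC library and 2.48 in the vehicle library, whereas the goblet-like cells had 0 against 30 and 0 against 48. The same cells held no UMI of Csf1r, Lyz2, Adgre1, Cd68 or Apoe, and 1 and 0 UMIs over all 11 macrophage markers. Near-empty THC barcodes of 1 to 100 UMIs, which show the RNA free in the suspension, held all 3 chains, at 25 C1qa, 37 C1qb and 26 C1qc UMIs. The level over cluster 5 was 136 CPM in THC and 127 CPM in vehicle cells. The vehicle matrix holds no such barcodes. The files do not hold where on the gene these reads lay, and which transcript they came from was not tested.

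Within cluster 5, the cells with C1qa were those rich in Reg4, a secreted lectin, and poor in Mptx1, a pentraxin of the gut. Reg4 exceeded Mptx1 in 6 of 6 THC and 10 of 10 vehicle cells with C1qa, and in 1 of 6 and 5 of 14 cells without it. The median Reg4 level was 10700 CPM in THC cells with C1qa (range 5266 to 15593) and 962 CPM in those without (0 to 3373). In vehicle cells the medians were 9723 CPM (2268 to 41104) and 1358 CPM (0 to 16549). The ranges did not overlap in the THC library and overlapped in the vehicle library. Median depths were 16452.5 and 21141 UMIs in THC cells with and without C1qa and 16651.5 and 14369 in vehicle cells. One vehicle cell of a proliferating epithelial-like cluster also held C1qa, with 7 UMIs, 185 Reg4 and 123 Muc2 UMIs. These cells were looked at after their values had been seen.

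**Figure D2:**
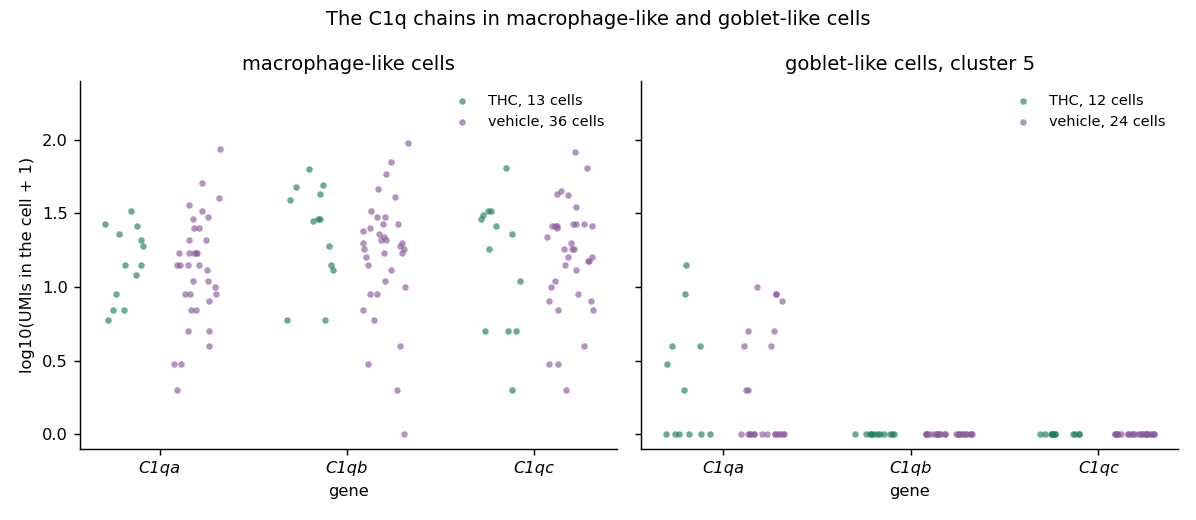
UMIs per cell of C1qa, C1qb and C1qc, as log10 of the count plus 1, in macrophage-like cells and in goblet-like cells of cluster 5, with 1 point per cell coloured by library. Macrophage-like cells hold all chains, while goblet-like cells hold C1qa alone, up to 13 UMIs.

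C1ra and C1s1, the proteases of the C1 complex, were found in all 3 fibroblast subsets. C1s1 had 349 THC and 541 vehicle UMIs there, at 549 CPM (exact Poisson 95% interval 493 to 609) and 497 CPM (456 to 541). It was found in 77 of 86 and 139 of 151 cells. C1ra had 189 and 310 UMIs, at 297 CPM (256 to 343) and 285 CPM (254 to 319), in 71 and 116 cells. Both genes were found in the same cell in 18 of 28 THC and 41 of 52 vehicle Pi16-side cells, in 37 of 44 and 63 of 79 Adamdec1-side cells and in 10 of 14 and 7 of 20 subepithelial cells.

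C1s1 stood at 550 and 448 CPM in Pi16-side, 527 and 545 CPM in Adamdec1-side and 617 and 432 CPM in subepithelial cells, in THC and vehicle order. The log2 ratio of Pi16-side over Adamdec1-side cells was 0.06 (-0.30 to 0.42) in the THC library and -0.28 (-0.56 to -0.01) in the vehicle library. C1ra stood at 303 and 296 CPM in Pi16-side and at 310 and 310 CPM in Adamdec1-side cells. In subepithelial cells it was at 249 CPM (164 to 362) in THC and 136 CPM (79.2 to 218) in vehicle cells, the latter below both other subsets.

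Outside the fibroblasts, both genes were found in other mesenchymal cells and little elsewhere. C1s1 stood at 378 and 452 CPM in mesothelial-like, 267 and 371 CPM in pericyte-like, 99.7 and 83.7 CPM in smooth muscle-like and 103 and 105 CPM in interstitial cell of Cajal-like cells, the pacemaker cells of the gut wall. Within the smooth muscle-like class, a cluster led by Hhip and Actc1 held it at 340 and 240 CPM, and the contractile cluster led by Actg2 and Des had 17 and 10 UMIs in 25 and 27 cells. C1ra followed there, at 107 and 134 CPM in the first and 4 and 4 UMIs in the contractile cluster. Macrophage-like cells held 0 and 7 C1s1 UMIs, and all 7 lay in 1 vehicle barcode that also carried 180 UMIs over 5 fibroblast markers. C1ra and C1s1 have near-identical copies, C1rb and C1s2, so reads shared between copies could be split or lost in counting.

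Among the fibroblast subsets, C4b was highest in the Adamdec1-side cells. It had 132 UMIs in 26 of 44 THC cells there and 185 UMIs in 39 of 79 vehicle cells, at 382 CPM (320 to 453) and 322 CPM (277 to 372). Pi16-side cells held 24 UMIs in 9 cells (132 CPM; 84.6 to 196) and 29 UMIs in 16 cells (74.6 CPM; 49.99 to 107). Subepithelial cells held 1 and 0 UMIs. Mesothelial-like cells held 11 and 12 UMIs in 2 cells of each library, at 149 CPM (74.1 to 266) and 362 CPM (187 to 632). C4b was thus 2.89-fold higher on the Adamdec1 side in the THC and 4.32-fold higher in the vehicle library, with log2 ratios of Pi16-side over Adamdec1-side of -1.53 (-2.23 to -0.90) and -2.11 (-2.73 to -1.54). Relative to Adamdec1-side cells, subepithelial cells were 41.5-fold lower in THC on the 1 UMI there (log2 ratio -5.37; -10.69 to -2.87) and at least 13.4-fold lower in the vehicle library, taking 3 counts as the limit of a count of 0.

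The fibroblast-like cells were also clustered again on their own, and 3 of those finer clusters held all Adamdec1-side cells together with a few of the other subsets. One led by Mfge8, Cbfa2t3 and Col6a5 held C4b at 610 CPM in 18 THC cells (16 of them Adamdec1-side) and 209 CPM in 24 vehicle cells (22). One, wholly Adamdec1-side, was led by Stmn2, Ctgf and Tnfsf13b and held 342 CPM in 10 THC and 728 CPM in 24 vehicle cells. The order of these 2 clusters was opposite in the 2 libraries. The remaining cluster, led by Marcksl1 and Isg15, had 216 CPM in 21 THC cells (18 Adamdec1-side) and 131 CPM in 34 vehicle cells (33). The genome also holds C4a, a near copy of C4b that had no row under that symbol in the count matrices. How reads shared by both copies were counted is not known.

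C3 had the opposite pattern to C4b among the fibroblasts. Pi16-side cells held 304 UMIs in 22 of 28 THC cells and 811 UMIs in 45 of 52 vehicle cells, at 1672 CPM (1489 to 1871) and 2088 CPM (1946 to 2236). Adamdec1-side cells held 39 UMIs in 5 of 44 cells and 68 UMIs in 14 of 79 cells, at 113 CPM (80.3 to 154) and 118 CPM (92.0 to 150). Subepithelial cells held 0 and 1 UMI. C3 was 14.8-fold higher in Pi16-side than in Adamdec1-side cells of the THC library and 17.6-fold higher in the vehicle library, log2 ratios of 3.89 (3.40 to 4.41) and 4.14 (3.78 to 4.52).

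Few Adamdec1-side cells carried its C3: 1 THC cell held 69.2% of the UMIs of that subset and 1 vehicle cell 29.4%. After thinning to 1000 UMIs, C3 was found in 57.1% and 73.1% of Pi16-side cells and in 6.82% and 11.4% of Adamdec1-side cells. As background, 1 of 83 THC and 2 of 123 vehicle epithelial-like cells held a C3 UMI at median depths of 20061 and 14063, against 6989 and 7655.5 in Pi16-side cells. Of the Pi16-side cells, the 11 THC and 24 vehicle cells of a finer cluster led by Ccl7, Ptx3 and Cmah held C3 at 2551 and 2710 CPM. A cluster of 14 THC and 27 vehicle cells led by Gas1, Smoc2 and Cilp held 1147 and 1527 CPM, lower in both libraries. That cluster was the one that took the submucosal name, on 3 of 6 list markers.

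Single cells showed the split between C3 and C4b as well. Of 28 THC Pi16-side cells, 14 held C3 alone, 1 C4b alone, 8 both and 5 neither, and of 52 vehicle cells 29, 0, 16 and 7. Of 44 THC Adamdec1-side cells, 0 held C3 alone, 21 C4b alone, 5 both and 18 neither, and of 79 vehicle cells 4, 29, 10 and 36. C1ra or C1s1 was found in 27 and 50 of the Pi16-side and in 44 and 77 of the Adamdec1-side cells. So the proteases upstream were shared by both subsets, while the counts of their substrate C4 and of C3 leaned to opposite ones.

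**Figure D3:**
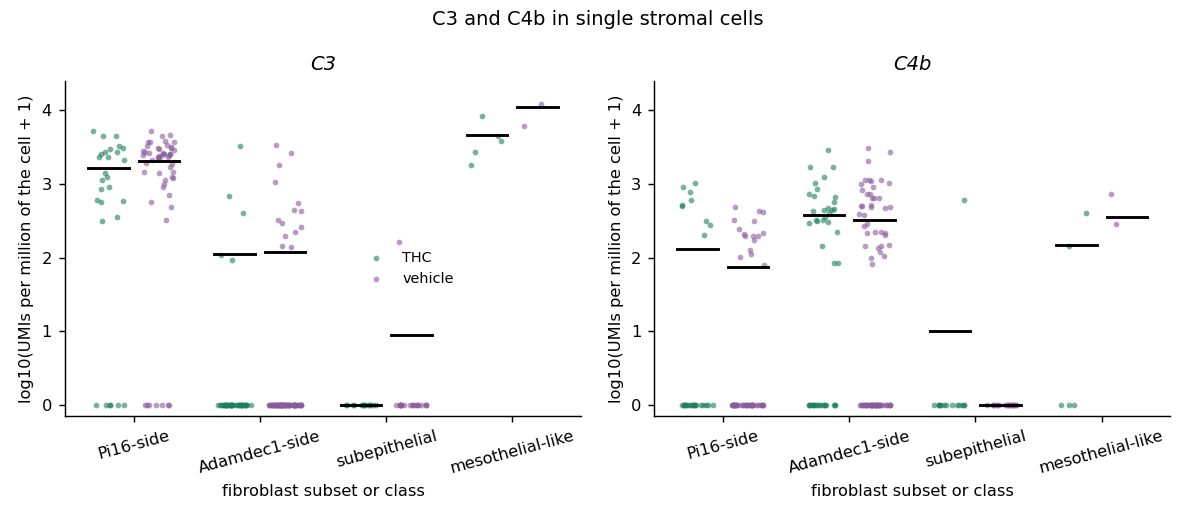
C3 and C4b in single cells of the 3 fibroblast subsets and of the mesothelial-like class, as log10 of the cell's CPM plus 1. Each point is a cell, coloured by library, and black bars mark the summed level of the group. C3 is high in Pi16-side and mesothelial-like cells and C4b in Adamdec1-side cells.

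Of the 5 genes with at least 20 UMIs over the pair of subsets, C3 alone was at least 1.5-fold higher and C4b alone at least 1.5-fold lower in Pi16-side than in Adamdec1-side cells, in each library. Among all genes so measured, 18.4% were higher and 24.8% lower in the THC library, and 17.6% and 20.5% in the vehicle library. Between subepithelial and Adamdec1-side cells, C3, C4b and Serping1 were lower in both libraries and C1ra in the vehicle library, with none higher. There the shares over all genes were 25.2% higher and 18.9% lower in THC, and 25.8% and 20.9% in vehicle cells. The subsets were defined by other genes, since complement genes took no part in the clustering, but the same cells gave both. Adamdec1 itself stood at 5239 CPM in THC and 9097 CPM in vehicle subepithelial cells, against 10214 and 8831 CPM in Adamdec1-side cells. It was thus higher in Adamdec1-side cells in the THC library only. Subepithelial cells also held smooth muscle markers, 6 of 8 at a summed 6491 CPM in THC and 7 of 8 at 3592 CPM in vehicle cells, against 284 and 383 CPM in Adamdec1-side cells. Their part in these differences was not tested.

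The 7 mesothelial-like cells held a large share of the C3 UMIs. Mesothelium is the outer lining of the gut. Its 5 THC cells held 26, 36, 45, 54 and 186 C3 UMIs and the 2 vehicle cells 33 and 340, together 347 and 373 UMIs. That was 347 of 694 C3 UMIs of the THC library and 373 of 1279 of the vehicle library (29.2%; 26.7 to 31.7), from 1.26% and 0.32% of the cells. The level was 4685 CPM (4205 to 5205) and 11241 CPM (10129 to 12441), above the Pi16-side cells in both libraries. The class also held Cfb, at 9 and 5 UMIs, and C2, the partner of C4 in cleaving C3, at 17 and 16 UMIs, of which 15 of the vehicle UMIs lay in 1 cell. Every value of this class rests on very few cells, and the vehicle level rests on 1 cell for 91.2% of its UMIs.

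Macrophage-like cells held little C3, at 3 UMIs in 1 THC cell and 20 UMIs in 6 vehicle cells. Of those 20, 6 lay in the barcode that carried fibroblast markers. The THC macrophage-like cells stood at 35.8 CPM (7.38 to 105), and the near-empty THC barcodes, with 35 C3 UMIs, at 42.8 CPM (29.8 to 59.5). These intervals overlapped, but the second is the level of free RNA alone, not of its share within cells. THC epithelial-like cells held 1 C3 UMI among 1609577 UMIs. Whether the macrophage-like UMIs came from free RNA was not tested.

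Cfb was near the limit of detection in the fibroblasts, with 3 UMIs in 86 THC and 12 in 151 vehicle cells. Epithelial-like cells held 20 UMIs in 15 of 83 THC cells and 22 in 19 of 123 vehicle cells, at 12.4 CPM (7.6 to 19.2) and 13.4 CPM (8.4 to 20.3). Goblet-like cells held 8 UMIs in 7 of 43 THC cells and 3 in 3 of 69 vehicle cells, at 12.6 CPM (5.43 to 24.8) and 3.30 CPM (0.68 to 9.64). Mesothelial-like cells stood higher, at 122 CPM (55.6 to 231) and 151 CPM (48.9 to 352). Near-empty THC barcodes held 7 Cfb UMIs, at 8.56 CPM (3.44 to 17.6), an interval that overlapped those of THC epithelial-like and goblet-like cells. That is the level of free RNA alone, and how much of it entered these cells was not tested.

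Serping1, the inhibitor of C1r and C1s, was found in nearly every fibroblast-like cell, in 83 of 86 THC and 148 of 151 vehicle cells. It had 1318 and 2370 UMIs there, at 2073 CPM (1962 to 2188) and 2179 CPM (2092 to 2268). Pi16-side cells stood at 2717 and 2638 CPM, Adamdec1-side cells at 2067 and 2196 CPM, and subepithelial cells at 1013 (832 to 1221) and 672 CPM (536 to 832). The inhibitor was thus lowest in the subepithelial cells in both libraries, 2.04-fold and 3.27-fold below the Adamdec1-side cells. A finer Pi16-side cluster led by Gas1, Smoc2 and Cilp, the one with less C3, held it at 4046 and 2969 CPM, against 2048 and 2394 CPM in the one led by Ccl7 and Ptx3.

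The highest level of Serping1 was in a small unnamed cluster led by Ces1d, Fibin, Thbs2 and Kcnn3. Its 7 THC cells held 225 UMIs, 13 to 52 per cell, and its 5 vehicle cells 244, 9 to 101 per cell. The level was 4619 CPM (4035 to 5263) and 6063 CPM (5326 to 6873), above the fibroblast-like class in both libraries. These cells held 8 of 10 fibroblast markers, at a summed 22745.5 and 18660 CPM, against 24706 and 26446 CPM in the fibroblast-like class. They held C1ra at 246 and 248 CPM, but no C4b UMI, and 0 and 1 C3 UMI. They took no class name.

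Pericyte-like cells held Serping1 at 734 CPM (460 to 1111) and 650 CPM (453 to 904), and lymphatic endothelial-like cells at 569 CPM (414 to 764) and 465 CPM (361 to 590), levels whose intervals overlapped. Smooth muscle-like cells stood lower, at 174 and 193 CPM. There too the cluster led by Hhip and Actc1 was the source, with 608 and 548 CPM in 16 of 16 and 20 of 20 cells, against 63.6 and 60.1 CPM in the contractile cluster. In macrophage-like cells Serping1 had 0 UMIs in the THC library and 11 in the vehicle library, all in the barcode with fibroblast markers.

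The libraries were compared within fibroblast-like cells for the 6 stromal genes and within macrophage-like cells for the C1q chains. Cfb, with most of its UMIs in other classes, had under 20 UMIs in fibroblast-like cells and was not counted. None of the other 5 stromal genes, and none of the 3 chains, reached 1.5-fold, but C3 lay just short of it, and some alternative settings took C3, C4b and the chains past it. Over all genes measured in fibroblast-like cells, 8.46% were at least 1.5-fold higher and 10.4% lower in the THC library. In macrophage-like cells these shares were 13.4% and 21%. The median log2 ratio of all measured genes was 0.00 in the fibroblast-like and -0.03 in the macrophage-like class. Scaling by median-of-ratios size factors lowered all macrophage-like ratios by 0.12.

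C3 lay at the edge of that limit in fibroblast-like cells, with 343 THC and 880 vehicle UMIs, or 539 CPM (484 to 600) and 809 CPM (756 to 864). The log2 ratio of THC over vehicle was -0.58 (-0.77 to -0.40). Within Pi16-side cells it was -0.32 (-0.52 to -0.13) and within Adamdec1-side cells -0.07 (-0.68 to 0.52). With the same mix of subsets in both libraries it was -0.30, and with the mesothelial-like cells counted as fibroblasts -0.20. It passed 1.5-fold when the richest cell per library was left out (-0.74), with under 20% mitochondrial UMIs (-0.67) and with median-of-ratios size factors (-0.63). The value of the class thus moved with which cells were in it.

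C4b had a log2 ratio of 0.33 (0.02 to 0.63) from 247 CPM in THC and 197 CPM in vehicle cells, and 0.81 with cells thinned to 1000 UMIs. C1s1 was at 0.14 (-0.06 to 0.34), C1ra at 0.06 (-0.21 to 0.33) and Serping1 at -0.07 (-0.17 to 0.03). Cfb, with 3 against 12 UMIs, was at -1.23 (-3.69 to 0.66). Of these intervals, those of C3 and C4b alone did not include 0, and they leave out the spread between mice and between cells.

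In macrophage-like cells C1qa was at 2447 CPM (2123 to 2805) in THC and 3157 CPM (2913 to 3416) in vehicle cells, a log2 ratio of -0.37 (-0.60 to -0.14). It was -0.84 after thinning to 1000 UMIs and -1.26 when the libraries were clustered separately, where the other chains passed 1.5-fold too (-0.79 for C1qb and -1.19 for C1qc). Under separate clustering the class was not made of the same cells. It took in the dendritic-like cells of the THC library, for 23 THC and 38 vehicle cells. With all cells clustered together, C1qb was at 0.14 (-0.04 to 0.32) and C1qc at -0.22 (-0.43 to -0.02). The chains of one protein did not lean the same way at this setting, and per-cell levels of all 3 overlapped between the libraries. Over 13 alternative settings C1qa kept its sign in 13, C1qb in 10 and C1qc in 11.

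**Figure D4:**
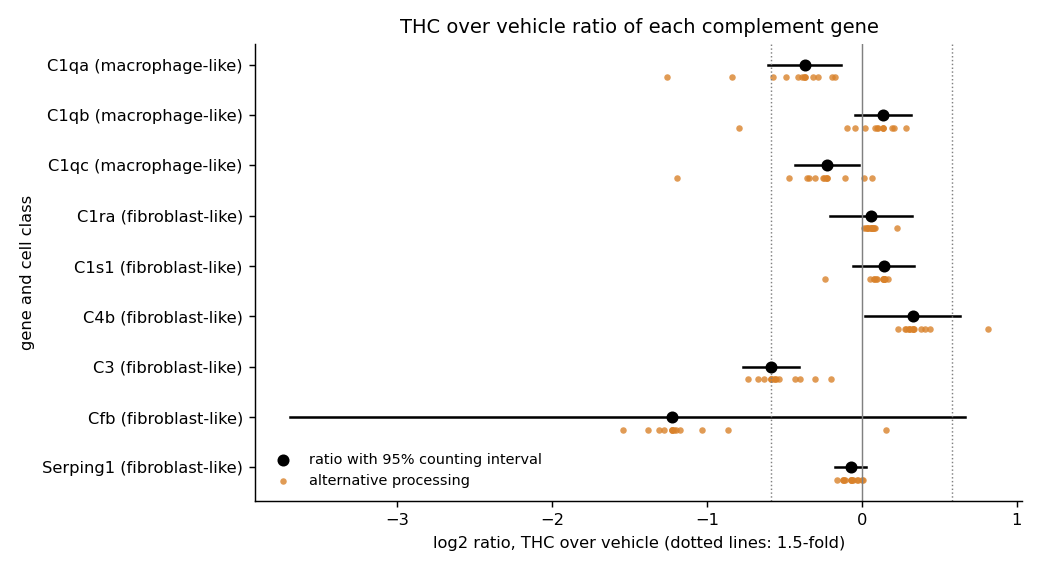
Log2 ratio of THC over vehicle for each stromal gene in fibroblast-like and each C1q chain in macrophage-like cells (black, with the exact 95% counting interval) and under the alternative settings (orange), with dotted lines at 1.5-fold. The alternatives of C3 run from -0.74 to -0.20, and Cfb has the widest interval, on 3 and 12 UMIs.

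The other genes of the pathway were taken from lists of complement genes, of which 54 were in the files. In fibroblast-like cells 12 had at least 20 UMIs, with 2 at least 1.5-fold higher and 1 lower in the THC library (8.46% and 10.4% over all genes) and a median log2 ratio of -0.06. Cr1l, a membrane regulator of C3 cleavage, had 31 and 29 UMIs (48.7 and 26.7 CPM), and Cd59a, which blocks the membrane attack complex, 12 and 13 UMIs. Clu, a chaperone that binds terminal complement, had 7 and 400 UMIs, but 331 of the vehicle UMIs lay in 1 cell. Cd55, which speeds decay of C3 convertases, was a regulator placed much like C3 among the fibroblast subsets. It stood at 550 and 553 CPM in Pi16-side cells against 89.7 and 129 CPM in Adamdec1-side cells, and subepithelial cells held no Cd55 UMI in either library.

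In macrophage-like cells 14 of the 54 were measured, with 2 higher and 4 lower by 1.5-fold in the THC library (13.4% and 21% over all genes) and a median of -0.27. Fcna, a ficolin of the lectin pathway, had 1 UMI in 1 of 13 THC cells and 27 UMIs in 8 of 36 vehicle cells, a log2 ratio of -3.53 (-8.88 to -0.93). Cfp, properdin, which stabilises the alternative convertase, had 12 and 53 UMIs (-0.92; -1.96 to 0.01). C3, with 3 and 20 UMIs, was also counted as lower (-1.51, interval -3.90 to 0.24). All 3 THC UMIs lay in 1 cell, and whether they came from free RNA was not tested. Of the vehicle UMIs, 6 lay in the barcode that carried fibroblast markers. The higher ones were the receptors Itgax (13 and 18 UMIs) and Lrp1 (13 and 19 UMIs). The receptors for the C3a and C5a fragments, C3ar1 and C5ar1, had 48 and 98 and 66 and 124 UMIs, with log2 ratios of 0.20 (-0.33 to 0.71) and 0.32 (-0.14 to 0.76). Nearly all of their UMIs in the data lay in this class, 48 of 53 and 98 of 98 for C3ar1 and 66 of 75 and 124 of 129 for C5ar1. The genes of the membrane attack complex were nearly absent, and among them C7 had 0 and 12 UMIs, all in fibroblast-like cells.

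Of 12 genes of signals known to raise complement genes, such as receptors for interferon gamma and interleukin 6, all 12 were measured in fibroblast-like cells. Among them 1 was higher and 1 lower by 1.5-fold (8.46% and 10.4% over all genes), with a median of 0.09. In macrophage-like cells 9 were measured, with 0 higher and 4 lower (13.4% and 21% over all genes) and a median of -0.36. The C/EBP factors Cebpb and Cebpd stood at 1496 and 1413 CPM and at 3564 and 3815 CPM in Pi16-side cells, and at 1450 and 1607 CPM and 3071 and 3105 CPM in Adamdec1-side cells. In subepithelial cells they stood at 1482 and 2176 CPM and at 2873 and 2896 CPM. Cebpb had 126 and 496 UMIs in macrophage-like cells, a log2 ratio of -0.75 (-1.04 to -0.47).

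The genes whose class pattern was most like that of the stromal genes (the mean of C1s1, C1ra, Serping1, C3 and C4b) were Pid1, Gpr153, Dpt, Adamts5 and Cygb. Their Pearson r across 12 points, 6 classes of at least 20 cells in each of 2 libraries, was 0.993 to 0.996. With classes of at least 10 cells (20 points), Cd248, Dpt, Mmp2, Igsf10 and Nnmt led at 0.916 to 0.924. For the C1q chains, which needed the lower minimum because only 13 THC cells were macrophage-like, they were Csf1r, Fcrls, Clec4n, Cd300c2 and Cd300a, at 0.980 to 0.988. These correlations of log2(CPM + 1) describe class sums that share their libraries. Csf1r is on the marker list that named the macrophage-like class. The C1q chains lay mostly in that class, 1 of the 10 used, so a high r follows for other genes largely confined to it.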

How the data were processed

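The deposited matrices hold raw counts of UMIs per gene and barcode, made by the authors with Cell Ranger 3.0.2, per the file headers. Per the submitters' processing notes, bcl2fastq and Seurat were used too, and no source used here names the genome build. The other deposited tables list gene names, as a kind of label, and barcodes. Per the labels' protocols, colons were digested with EDTA and then enzymes, and the lamina propria was enriched on Percoll.

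Here, cells of both libraries were scaled to 10000 UMIs, log-transformed and clustered together in scanpy 1.11.5 (30 principal components, 15 neighbours, Leiden resolution 1), without complement genes. Classes took the best of 21 marker lists, with at least 3 markers. The scoring, a Notch3 minimum of 25% of cells for pericytes and the mesothelial rule (at least 3 of 5 markers in a cell) were written after the data had been seen. Doublets were not removed, and scrublet was an alternative. UMIs were summed per class and library. Ratios carry exact conditional Poisson intervals and shares exact binomial (Clopper-Pearson) intervals at 95%. Only the ratio intervals were tried on simulated data, drawn from the Poisson model that they assume. Such data cannot show how the intervals perform where a few cells hold most of a gene's UMIs. A gene counted as measured with at least 20 UMIs over both sides. All 9 genes are named, with the other complement genes of fixed lists, of which 1 is counted in the lists and is not reported here by itself. The genes and lists were chosen with earlier results of these data known.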

Additional observations from a re-analysis of the deposited data

Results flagged for a closer look

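The near-empty barcodes of the THC library entered no comparison between the libraries and served only as the level of free RNA, yet they held UMIs of all 9 genes above the limit that a count of 0 allows (3 counts). In 105817 barcodes of 1 to 100 UMIs, with 817720 UMIs in all, there were 35 C3, 6 C4b, 10 C1s1, 5 C1ra, 48 Serping1, 7 Cfb, 25 C1qa, 37 C1qb and 26 C1qc UMIs. C3 was at 42.8 CPM there against 157 CPM over all kept THC cells, and Serping1 at 58.7 against 419 CPM. The vehicle matrix holds no such barcodes, so the 2 libraries could not be compared in this.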

How the results depend on the processing

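No paired analysis was possible because each group had 1 library. Of 122 values of the THC over vehicle ratio under alternative settings, 107 moved by less than the counting interval. The others, as log2 ratios, follow. C3 was -0.40 with under 5% mitochondrial UMIs, -0.30 with the same mix of subsets and -0.20 with the mesothelial-like cells, a setting chosen after seeing the data under which Cfb turned to 0.16. With cells thinned to 1000 UMIs, C4b was 0.81, C1s1 -0.24, C1qa -0.84, C1qb -0.045 and C1qc 0.016. With each library clustered on its own, C1qa was -1.26, C1qb -0.79 and C1qc -1.19, where the macrophage-like class took in the dendritic-like cells of the THC library (23 THC and 38 vehicle cells). C1qc was 0.062 with under 5% mitochondrial UMIs. With classes from marker UMIs, C1qb was -0.10 and C1qc -0.47. The cause of the other moves was not tested.

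The share of a gene's UMIs in the class set for it moved as follows, THC before vehicle. At a minimum of 2500 UMIs it was 67.0% and 91.5% for C1qa, 77.4% and 99.8% for C1qb, and 81.5% and 99.7% for C1qc. At resolution 0.5, which merged the macrophage-like and dendritic-like classes, it was 88.6% and 91.7%, 99.5% and 99.8%, and 99.7% and 99.7%. With under 20% mitochondrial UMIs Serping1 was at 83.7% and 87.1%. With classes from marker UMIs C1s1 was at 79.0% and 84.7%, Serping1 at 81.8% and 87.1%, C1ra at 84.3% in vehicle and C1qb at 89.6% in THC cells. Over genes with at least 1 UMI in each library, 18.2% (fibroblast-like) and 29.3% (macrophage-like) were at least 1.5-fold higher. The Cfb ratio rests on 3 and 12 UMIs, and the THC values of the C1q chains on 13 macrophage-like cells, which limits their precision.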
